A study of Mus musculus with 4 samples.

Results

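The genes described here encode the Eph receptors, the ephrins, the Slits and their Robo receptors, the netrins and their Unc5 receptors, and the teneurins. Members were taken by gene symbol, from the probe sets that the array annotation assigned to one such gene alone, and came to 40 genes with 81 probe sets out of 18193 genes with 34945 probe sets. Ephb2 was not analysed here. Each gene was represented by its probe set with the highest mean over all arrays.

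The comparison was between 2 mouse stromal lines and addressed the identity of the line OP9M2 and the means by which it sustains human hematopoietic stem and progenitor cells. OP9M2, a mesenchymal stem cell line, is a single clone derived at low density from OP9 stroma and sustained such cells in co-culture. BFC012, a line of fibroblasts taken from fetal liver, did not. Each line had 2 arrays, titled as biological replicates in the labels, and both lines had been irradiated with 2000 rad and seeded at 25000 cells per cm2, 48 hours ahead of RNA extraction. OP9M2 was kept in 20% serum and BFC012 in 10%, and the effect of serum cannot be told apart from that of the line. Each array averaged over the cells of a plate, so fewer cells with a transcript and less of it per cell cannot be told apart either.

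Most of these proteins were first known as cues that steer growing axons and migrating cells. Eph receptors are receptor tyrosine kinases that meet ephrins on a neighbouring cell. A-type ephrins are held by a lipid anchor and B-type ephrins span the membrane, so that both the receptor cell and the ephrin cell receive a signal. Slits are secreted ligands of Robo receptors, netrins are secreted, laminin-related ligands of Dcc, neogenin and the Unc5 receptors, and teneurins are large membrane proteins that bind latrophilins on adjacent cells. In mouse bone marrow, Robo4 is known from hematopoietic stem cells, and ephrin-B2 with its receptor EphB4 is known from vessels and bone-forming stroma.

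All values below are log2 values, and a value at or below 6.09, the background level set from olfactory and related receptor genes, was treated as not above background. A gene was called when the adjusted p of limma was under 0.05 and the difference between lines was at least 1 log2 unit. Differences are OP9M2 minus BFC012 with the standard error (SE), from 2 arrays per line. The BFC012 arrays resembled each other (Pearson r = 0.994 across probe sets) more than the OP9M2 arrays did (r = 0.980), and arrays of different lines had r of 0.941 to 0.954. OP9M2 replicate 2 differed from the other 3 arrays in its poly-A spike controls (median 3.66, against 6.12 to 6.97) and in its probe sets for 18S ribosomal RNA (median 14.1, against 12.7 to 13.2). All 12 genes called below kept their direction without this array. The spread in that fit rested on the BFC012 pair alone, so it cannot show how far the calls depend on this array. Values without it are given where a call or a size depended on it. Of the stromal markers examined, 7 of 8 were above background in OP9M2 and 6 of 8 in BFC012, with Thy1 below background in both lines. Col1a2, a chain of type I collagen, was called higher (14.2 and 14.1 in OP9M2, against 6.18 and 6.07 in BFC012, difference 8.07 ± 0.14) on all 3 of its probe sets, and the other 7 stromal markers were not called. An unadjusted p of limma under 0.05 was seen for 4 of the 8, against 23.3% of all genes. Pdgfra (3.37 ± 0.56, adjusted p = 0.0513) and Pdgfrb (2.18 ± 0.51, adjusted p = 0.109) were higher in OP9M2 with arrays that did not overlap. Col1a1 was the stromal marker with a lower mean in OP9M2 (-0.63). No endothelial, hematopoietic, neuronal or glial marker was called by limma on its representative probe set, and at an unadjusted p under 0.05 the numbers were 0 of 8, 0 of 6, 0 of 11 and 1 of 3. The second probe set of the glial marker S100b was called higher (difference 2.54), while its representative one was not (1.42, adjusted p = 0.0736). Of 5 epithelial markers 2 were above background in OP9M2 and 4 in BFC012, and Cdh1 was called lower (3.50 and 3.39 in OP9M2, against 7.71 and 8.30 in BFC012). Epcam had the higher mean in OP9M2 (10.3 and 9.20, against 8.73 and 8.90 in BFC012) and was not called (0.94, adjusted p = 0.307). Krt19 (-1.40), Krt8 (-0.59) and Krt18 (-0.04, below background in both lines) were not called either. The summed level of that list was 10.9 and 9.73 in OP9M2, against 10.3 and 10.97 in BFC012, and its part in the results was not tested.

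Calls among the guidance genes were mainly towards lower levels in OP9M2. Of the 40 genes, 11 (27.5%) were called lower in OP9M2, against 3.56% of all 18193 genes, and 1 (2.50%) was called higher, against 2.36% of all genes. The genes that fell were the ligands Slit2, Slit3, Efnb2, Efna5, Efna2 and Ntn4, the receptors Epha4, Epha7, Ephb3 and Unc5b, and the teneurin Tenm3. The single gene that rose was the receptor Robo1. The median difference over the 40 genes was -0.04, close to that of all genes (0.03), with 28 members not called. Of the 81 probe sets, 20 (24.7%) were called lower and 1 (1.23%) higher, against 2.66% and 1.80% of the 45037 probe sets tested. The arrays of the lines did not overlap, with OP9M2 lower, for 16 of the 40 members, against 24.8% of all genes. They did not overlap, with OP9M2 higher, for 8 of the 40, against 28.4% of all genes.

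**Figure D1:**
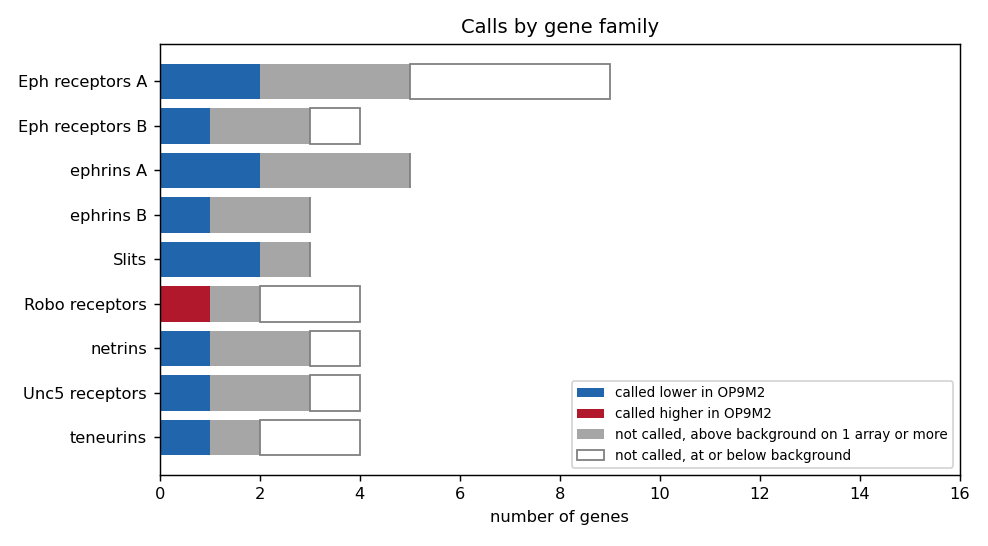
Number of genes in each family (horizontal axis) that limma called lower or higher in OP9M2 than in BFC012, that were not called but above background on 1 array or more, and that were at or below background on all 4 arrays. Calls towards lower levels in OP9M2 stood in 8 of the 9 families, and the Robo receptors held the 1 call towards higher levels.

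In all, 29 members were above background on 1 array or more, 18 of them on all 4 arrays, and 11 were above it on none. The calls depended on the BFC012 arrays. When either BFC012 replicate was left out, the spread rested on the OP9M2 pair alone and limma called 0 of the 45037 probe sets, with 4568 and 4517 at an unadjusted p under 0.05. When either OP9M2 replicate was left out, the spread rested on the BFC012 pair alone. Without OP9M2 replicate 1, 11 members were called lower (5.41% of all genes were) and 3 higher (3.78% of all genes). Without OP9M2 replicate 2, 11 were called lower (6.26% of all genes) and 2 higher (6.47% of all genes). The 12 called members kept their direction in every one of these fits.

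**Figure D2:**
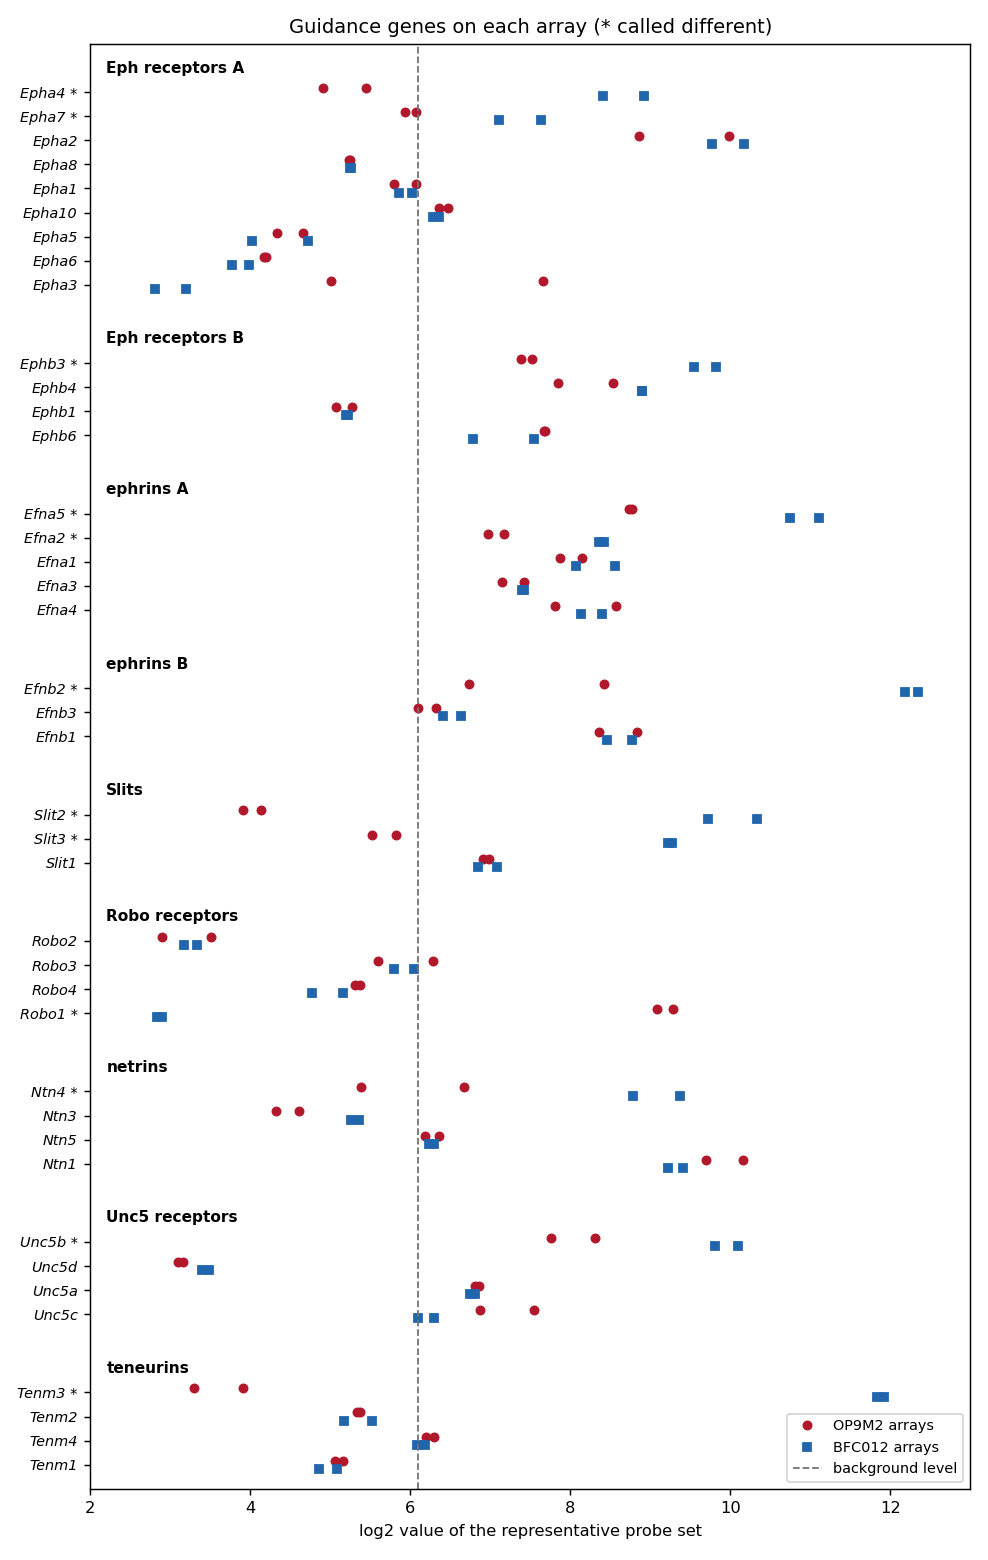
Log2 values of the representative probe set of each of the 40 genes on the 2 OP9M2 arrays (circles) and the 2 BFC012 arrays (squares), by family, with the background level as a dashed line at 6.09. Asterisks mark the 12 called genes; the Tenm3 arrays of the lines were furthest apart, and Robo1 was the one called gene with its OP9M2 arrays on the right.

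The ligands Slit2 and Slit3 and the receptor Robo1 differed between the lines in opposite directions. Slit2, a secreted ligand that repels Robo-bearing cells, was at 3.91 and 4.13 on the OP9M2 arrays and at 9.72 and 10.3 on the BFC012 arrays. Both OP9M2 arrays were below background, and the difference was -6.00 ± 0.25 (adjusted p = 0.00197), at least 15.3-fold. The other 2 Slit2 probe sets were below background on all arrays (differences -1.53, called lower, and -0.47), and the mean of the 3 differed by -2.67. Slit3, its close relative, was at 5.82 and 5.52 in OP9M2, against 9.23 and 9.28 in BFC012. It was again below background in OP9M2 alone, with a difference of -3.58 ± 0.16 (adjusted p = 0.00235), at least 8.92-fold, on its 1 probe set. Slit1, the third ligand, was at 6.99 and 6.90 in OP9M2, against 7.08 and 6.84 in BFC012, and its difference had a 95% interval of -0.42 to 0.39.

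Robo1, the widely expressed Slit receptor, was at 9.28 and 9.08 in OP9M2, against 2.84 and 2.90 in BFC012. Both BFC012 arrays were below background, and the difference was 6.32 ± 0.15 (adjusted p = 0.00105), at least 8.52-fold. The call rested on the probe set 1427231_at, since the other 2 Robo1 probe sets were below background on all arrays (differences 0.33 and 0.52, in the same direction), and the mean of the 3 differed by 2.39. Robo2, a receptor of neurons, and Robo4, the Robo of endothelium, were below background on every array. Robo3, a receptor of commissural neurons, was at 6.29 and 5.60 in OP9M2, against 6.04 and 5.79 in BFC012, while its other probe set was at 4.03 and 5.63 in OP9M2, against 6.73 and 6.70 in BFC012 (-1.88 ± 0.55, adjusted p = 0.169). The 2 Robo3 probe sets thus disagreed, and neither was called.

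Sequences upstream of the start sites are shown for both Slits and Robo1, which differed in opposite directions, and for Efnb2 and Tenm3, which are described below. They are the 150 bases before the annotated start, on the strand of the gene, from the RefSeq promoter table (build GRCm38.p6), which held 36 of the 40 members. Capitals mark GGGCGG, the core of the GC box, or its reverse complement CCGCCC; 2 such matches overlap in the Slit3 stretch.
Robo1, chr16:72662999-72663148, plus strand: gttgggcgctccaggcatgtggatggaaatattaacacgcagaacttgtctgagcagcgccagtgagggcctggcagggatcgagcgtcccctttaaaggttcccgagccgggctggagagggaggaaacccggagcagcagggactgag
Slit2, chr5:47983005-47983154, plus strand: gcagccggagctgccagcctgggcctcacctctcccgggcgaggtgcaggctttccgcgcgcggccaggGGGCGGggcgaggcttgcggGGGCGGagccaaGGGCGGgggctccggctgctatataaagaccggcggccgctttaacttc
Slit3, chr11:35121306-35121455, plus strand: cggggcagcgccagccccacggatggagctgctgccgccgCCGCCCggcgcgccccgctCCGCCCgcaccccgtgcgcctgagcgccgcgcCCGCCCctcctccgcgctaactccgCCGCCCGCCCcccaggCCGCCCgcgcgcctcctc
Efnb2, chr8:8661243-8661392, minus strand: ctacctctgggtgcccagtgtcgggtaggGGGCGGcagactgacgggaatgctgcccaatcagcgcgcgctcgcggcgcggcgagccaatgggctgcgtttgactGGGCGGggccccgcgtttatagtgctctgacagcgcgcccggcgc
Tenm3, chr8:48674691-48674840, minus strand: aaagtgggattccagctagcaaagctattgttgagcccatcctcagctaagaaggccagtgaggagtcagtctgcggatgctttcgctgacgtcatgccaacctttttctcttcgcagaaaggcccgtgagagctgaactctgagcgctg

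The stretches of Slit2, Slit3 and Efnb2 held 3, 6 and 2 matches to GGGCGG, and those of Robo1 and Tenm3 held none. The 300-base windows of the table (250 bases before to 50 after a start) were searched on both strands. Of the windows of called members, 11 of 13 held the motif. So did 15 of 29 windows of members that were not called and 35.7% of all 32851 windows. The 13 windows came from 12 genes, and the windows of Epha7, which overlap each other, both held the motif. The windows also differed in base composition, with a median of 30 CpG dinucleotides in those of called members, 15 in those of the other members and 7 over all windows. TATAAA, the core of the TATA box, stood in the windows of Slit2 and Efnb2 among the called members and in 13.6% of all windows. TGANTCA, the binding letters of AP-1 factors, stood in none of the 42 member windows and in 7.81% of all windows. These matches describe the letters only.

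**Figure D3:**
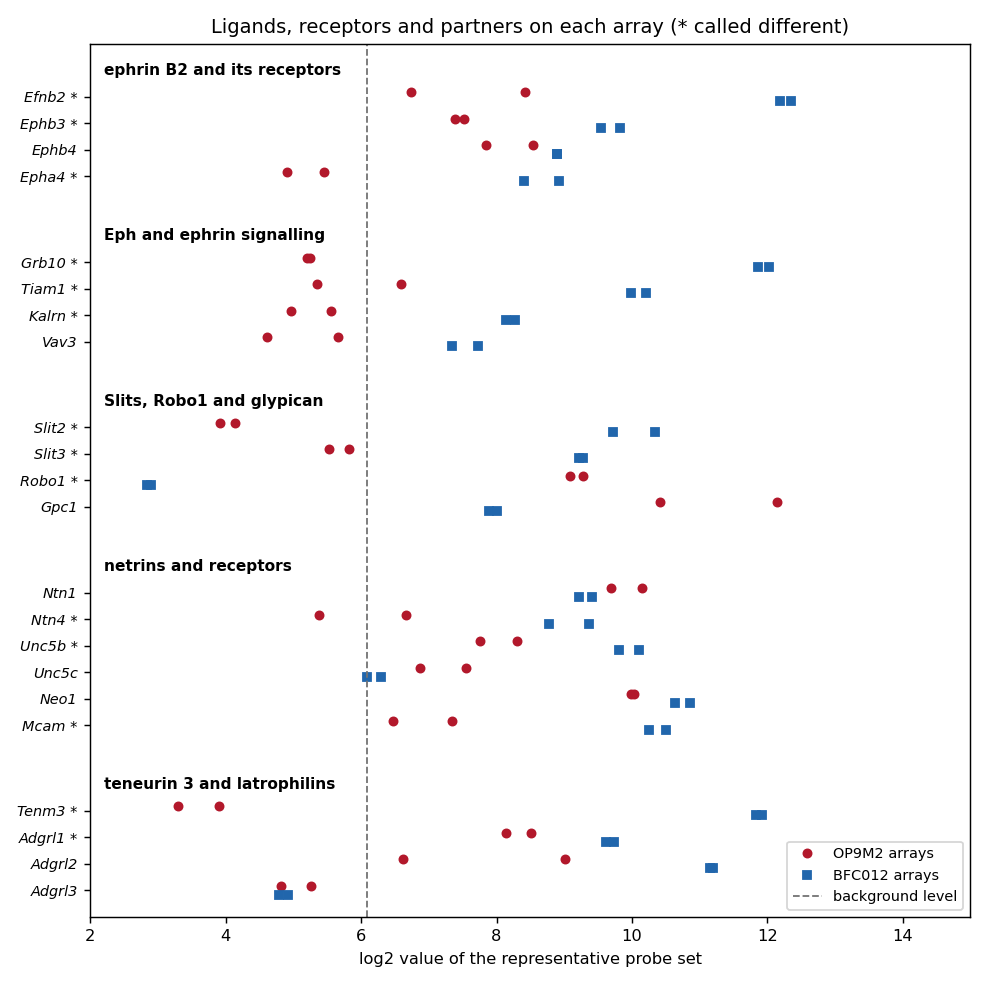
Log2 values on the OP9M2 arrays (circles) and the BFC012 arrays (squares) for selected ligands with their receptors and partners, with the background level as a dashed line. Asterisks mark genes called by limma; Grb10, Slit2 and Tenm3 lay below background in OP9M2 and at 9.72 or more in BFC012, and Robo1 had the opposite pattern.

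Proteins that act with Slits and Robos were not called in either direction on their representative probe sets. Of 15 listed partners 14 were measured, and limma called none of them on that probe set, against 5.91% of all genes. An unadjusted p under 0.05 was seen for 4, as for 23.3% of all genes (median difference over the list -0.15). Among other probe sets, 1 of 2 for Nell2 was called lower (-1.94). For Enah 1 of 6 was called higher, with the 6 differences between 0.70 and 1.38. Gpc1, a glypican whose heparan sulfate chains bind Slits, was at 12.1 and 10.4 in OP9M2, against 8.002 and 7.90 in BFC012. Its arrays did not overlap, but the OP9M2 replicates were 1.72 log2 units apart and the difference of 3.33 ± 0.59 missed the threshold (adjusted p = 0.0596). Gpc1 was called higher without OP9M2 replicate 1 (difference 2.47, adjusted p = 0.00481) and without OP9M2 replicate 2 (4.19, adjusted p = 0.00128), fits in which the spread rested on the BFC012 pair and the gap between the OP9M2 arrays did not count.

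Of the 8 ephrins 3 were called lower in OP9M2 (37.5%, against 3.56% of all genes). The representative probe sets of all 8 were above background on every array, that of Efnb3 barely (6.10 on OP9M2 replicate 1). Other probe sets of Efnb2 and Efna5 were below it in OP9M2, such as 1449548_at (5.57 and 5.30) and 1421796_a_at (5.06 and 5.77). Efnb2, a transmembrane ephrin that binds EphB receptors and EphA4, was at 6.74 and 8.43 in OP9M2, against 12.2 and 12.3 in BFC012. OP9M2 replicate 2 was the higher OP9M2 array but stayed well below both BFC012 arrays, and the difference was -4.68 ± 0.58 (25.7-fold, adjusted p = 0.0260). Of its 4 probe sets 3 were called lower, with differences of -5.49, -4.68 and -2.69. The difference was -3.84 without OP9M2 replicate 1 and -5.53 without OP9M2 replicate 2, fits in which the gap between the OP9M2 arrays did not count.

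Efna5, a lipid-anchored ligand of EphA receptors, was at 8.77 and 8.74 in OP9M2, against 11.1 and 10.7 in BFC012. The lines were apart by -2.17 ± 0.18 (4.51-fold, adjusted p = 0.00908), and its second probe set differed by -1.40 without being called (adjusted p = 0.0710). Efna2, another A-type ephrin, was at 7.17 and 6.97 in OP9M2, against 8.36 and 8.42 in BFC012. This was the smallest difference among the called members, at -1.32 ± 0.15 (2.50-fold, adjusted p = 0.0195), and the second Efna2 probe set differed by -0.57.

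The other 5 ephrins were not called. Efnb1, the X-linked B-type ephrin, was at 8.84 and 8.36 in OP9M2, against 8.45 and 8.77 in BFC012, with a 95% interval of the difference of -0.62 to 0.60. Efna1 (-0.31, interval -0.92 to 0.30), Efna3 (-0.12, interval -0.54 to 0.29), Efna4 (-0.08, interval -0.87 to 0.71) and Efnb3 (-0.31, interval -0.75 to 0.14) had intervals that included 0. Within the B-type ephrins, Efnb2 was therefore the one called gene. On the representative probe sets, the intervals of Efnb1 and Efnb3 ended before a 2-fold change in either direction. Of the other Efnb1 probe sets, 1418285_at had an interval of -1.14 to 0.63, which includes a 2-fold fall, and 1451591_a_at one of -0.99 to 0.44.

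Of the 13 Eph receptors 3 were called, each of them lower in OP9M2 (23.1%, against 3.56% of all genes called lower). Epha4, which binds ephrins of both classes, was at 4.91 and 5.45 in OP9M2, against 8.92 and 8.41 in BFC012. It was above background in BFC012 only, and the difference was -3.49 ± 0.28 (at least 5.95-fold, adjusted p = 0.00857). Of the 5 Epha4 probe sets 4 were called lower, and the 5 differences lay between -5.0 and -1.17.

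Epha7, a receptor for A-type ephrins, was at 5.93 and 6.07 in OP9M2, against 7.10 and 7.63 in BFC012. Its difference of -1.37 ± 0.22 (at least 2.42-fold) lay at the edge of the threshold (adjusted p = 0.0498), and with OP9M2 replicate 1 left out the call was lost (-1.30, adjusted p = 0.0676). A second probe set of Epha7, 1451991_at, showed the lines further apart, at 3.08 and 3.79 in OP9M2, against 8.16 and 8.73 in BFC012 (-5.01 ± 0.33, at least 5.10-fold, adjusted p = 0.00543). The 4 Epha7 probe sets were all lower in OP9M2, and 2 of them were called.

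Ephb3, a receptor for B-type ephrins, was at 7.38 and 7.52 in OP9M2, against 9.54 and 9.83 in BFC012. It was present in both lines and differed by -2.23 ± 0.17 (4.71-fold, adjusted p = 0.00716), measured by 1 probe set. Ephb4, the chief receptor of ephrin-B2, was at 8.53 and 7.84 in OP9M2, against 8.89 and 8.89 in BFC012. It was not called (-0.70 ± 0.26, adjusted p = 0.258). The difference was -1.05 without OP9M2 replicate 1 and -0.36 without OP9M2 replicate 2. Ephb6, a receptor without kinase activity, was at 7.69 and 7.67 in OP9M2, against 6.79 and 7.55 in BFC012 (0.51 ± 0.28, adjusted p = 0.436).

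Epha2, a receptor for A-type ephrins found in many epithelial and stromal cells, was at 8.86 and 9.99 in OP9M2, against 10.2 and 9.77 in BFC012. Its arrays overlapped, and the difference of -0.55 had an interval of -1.66 to 0.56. Epha3, a high-affinity receptor of ephrin-A5, was at 5.01 and 7.65 in OP9M2, against 3.20 and 2.81 in BFC012. It was above background on OP9M2 replicate 2 alone, the 2 OP9M2 arrays were 2.65 log2 units apart, and the difference of 3.33 ± 0.90 was not called (adjusted p = 0.146). It was called higher without OP9M2 replicate 1 (4.65, adjusted p = 0.00239) and without OP9M2 replicate 2 (2.001, adjusted p = 0.0128), where the spread rested on the BFC012 pair. The other 3 Epha3 probe sets were below background. Epha10, which also lacks kinase activity, was just above background in both lines (6.36 and 6.48 in OP9M2, 6.28 and 6.36 in BFC012).

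**Figure D4:**
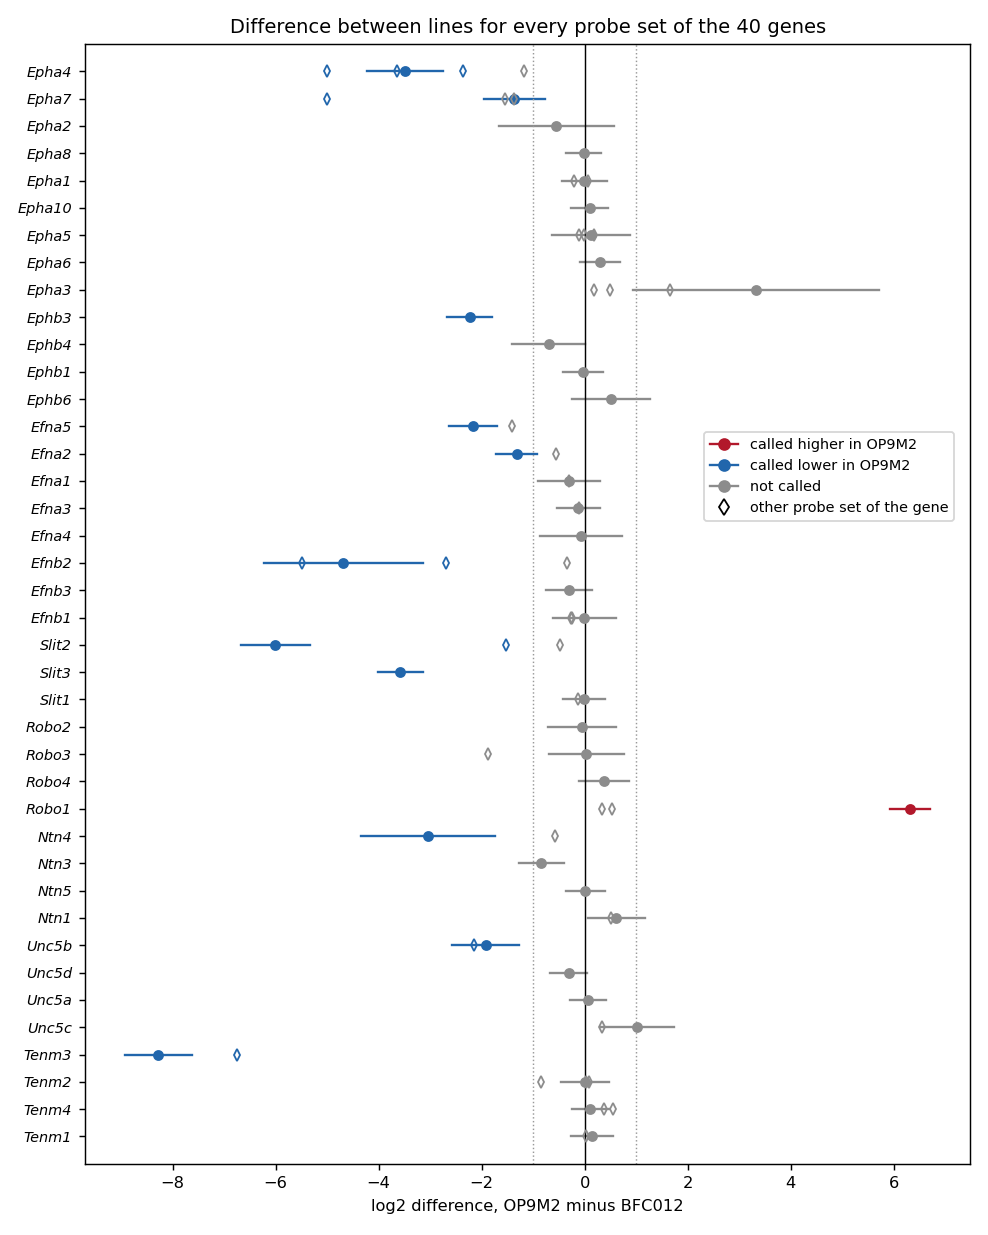
Log2 difference, OP9M2 minus BFC012, for all 81 probe sets of the 40 genes. Filled circles with 95% intervals are the representative probe sets, open diamonds the other probe sets of the gene, coloured by call; the dotted lines mark 1 log2 unit. All 31 probe sets of the 12 called genes lay on the same side of 0 as their gene.

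Signalling proteins of Eph receptors and ephrins included large differences in the same direction. Of 24 listed genes 23 were measured. On representative probe sets limma called 3 lower, against 3.56% of all genes called lower, and none higher. An unadjusted p under 0.05 was seen for 8, against 23.3% of all genes (median difference -0.15). Anks1b was not called on its representative probe set (0.23). It had 1 of 7 probe sets called lower, with the 7 differences between -3.41 and 0.23. Grb10, an adaptor protein that binds activated Eph and insulin receptors and is encoded by an imprinted gene, was at 5.25 and 5.21 in OP9M2, against 11.9 and 12.02 in BFC012 (-6.72 ± 0.14, at least 57.7-fold, adjusted p = 0.00105). Of its 3 probe sets 1 was called, the smallest of the differences was -0.59, and the mean of the 3 differed by -2.81.

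Tiam1, an exchange factor for Rac that ephrins and Eph receptors recruit, was at 5.35 and 6.59 in OP9M2, against 10.2 and 9.98 in BFC012. The difference was -4.13 ± 0.44 (adjusted p = 0.0181), with OP9M2 replicate 1 alone below background. It was called on 1 of 3 probe sets, and it was -3.50 without OP9M2 replicate 1 and -4.75 without OP9M2 replicate 2. Kalrn, which acts after EphB receptors in neurons, was at 5.56 and 4.97 in OP9M2, against 8.13 and 8.27 in BFC012 (-2.94 ± 0.24, at least 4.32-fold, adjusted p = 0.00893). Only 2 of its 8 probe sets were called, and the mean of all 8 differed by -0.71. Vav3, of a family of exchange factors engaged by Eph receptors, was at 4.61 and 5.66 in OP9M2, against 7.35 and 7.73 in BFC012, and at -2.40 ± 0.39 it missed the threshold (adjusted p = 0.0502). Under 4 alternatives to the fit it was called lower (adjusted p of 0.0355 to 0.0494). Its difference was -1.88 without OP9M2 replicate 1 and -2.93 without OP9M2 replicate 2. The kinases Src (-0.62), Fyn (0.48) and Abl1 (-0.45), which act after Eph receptors and ephrins, were not called.

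Of the 4 netrins 1 was called lower in OP9M2, as was 1 of the 4 Unc5 receptors (25% of each, against 3.56% of all genes). Ntn4, a netrin that joins basement membranes through laminin, was at 5.38 and 6.67 in OP9M2, against 8.78 and 9.37 in BFC012. OP9M2 replicate 1 was below background and replicate 2 above it, and the difference of -3.05 ± 0.49 was close to the threshold (adjusted p = 0.0481). It was -2.41 without OP9M2 replicate 1 and -3.69 without OP9M2 replicate 2, fits in which the gap between the OP9M2 arrays did not count. The second Ntn4 probe set was below background on all arrays, with a difference of -0.58. Unc5b, a netrin receptor with roles in repulsion and cell survival, was at 8.31 and 7.76 in OP9M2, against 10.1 and 9.81 in BFC012. The difference was -1.92 ± 0.24 (3.79-fold, adjusted p = 0.0278), and the second probe set was also called lower (-2.14 ± 0.16, adjusted p = 0.00779).

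Ntn1, the classic axon-attracting netrin, was at 10.2 and 9.70 in OP9M2, against 9.22 and 9.41 in BFC012. The arrays of the lines did not overlap, and its 95% interval of 0.06 to 1.17 was above 0, but the difference of 0.61 ± 0.21 was not called (adjusted p = 0.220). Unc5c, another repulsive netrin receptor, was at 6.88 and 7.55 in OP9M2, against 6.30 and 6.09 in BFC012 (1.02 ± 0.27, adjusted p = 0.138). Its difference was 1.36 without OP9M2 replicate 1 and 0.68 without OP9M2 replicate 2. Ntn5 (6.36 and 6.18 in OP9M2, 6.30 and 6.23 in BFC012) and the receptor Unc5a (6.80 and 6.86 in OP9M2, 6.81 and 6.74 in BFC012) had overlapping arrays. Ntn3 was below background on all arrays, at 4.61 and 4.32 in OP9M2, against 5.26 and 5.36 in BFC012 (-0.85 ± 0.17, adjusted p = 0.0748).

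Of 21 listed netrin receptors and signalling proteins outside the Unc5 family, 19 were measured. On representative probe sets limma called 1 (5.26%) lower, near the 3.56% of all genes, and none higher. An unadjusted p under 0.05 was seen for 5, against 23.3% of all genes (median difference over the list 0.04). Mcam (CD146), a surface protein of vessels and pericytes that also binds netrin-1, was at 7.35 and 6.47 in OP9M2, against 10.5 and 10.3 in BFC012 (-3.48 ± 0.33, 11.1-fold, adjusted p = 0.0132). Neo1, which encodes neogenin, was at 9.99 and 10.0 in OP9M2, against 10.6 and 10.9 in BFC012, a difference that was not called (-0.73 ± 0.15, adjusted p = 0.0795). Dcc, the attractive netrin receptor of neurons, was at 7.10 and 7.10 in OP9M2, against 6.95 and 6.97 in BFC012. Rgma, a neogenin ligand, was at 8.61 and 7.48 in OP9M2, against 6.17 and 6.23 in BFC012, and was not called (1.85 ± 0.40, adjusted p = 0.0927). Its difference was 1.28 without OP9M2 replicate 1 and 2.41 without OP9M2 replicate 2. Ablim1, an actin-binding relative of a nematode netrin-pathway protein, was at 7.32 and 8.64 in OP9M2, against 10.6 and 10.9 in BFC012 (-2.79 ± 0.47, adjusted p = 0.0528). Another of its 4 probe sets was called lower, and the 4 disagreed, with differences between -2.79 and 0.02. On the representative one the difference was -2.12 without OP9M2 replicate 1 and -3.45 without OP9M2 replicate 2.

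Tenm3 had the largest difference of all 40 members. This teneurin, which joins matching cells across synapses in the nervous system, was at 3.90 and 3.29 in OP9M2, against 11.8 and 11.9 in BFC012. Both OP9M2 arrays lay far below background, and the difference of -8.28 ± 0.24 was called (at least 55.0-fold, adjusted p = 0.00113). The second Tenm3 probe set, 1429178_at, was at 3.79 and 4.32 in OP9M2, against 10.7 and 10.9 in BFC012 (-6.75 ± 0.23, at least 26.1-fold, adjusted p = 0.00150). Tenm1 and Tenm2 were below background on all arrays, and Tenm4 was close to it (6.20 and 6.29 in OP9M2, 6.09 and 6.19 in BFC012). Tenm3 was therefore the one teneurin clearly above background, and in BFC012 alone.

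Of 7 listed teneurin partners 6 were measured, and 1 (16.7%) was called lower, against 3.56% of all genes. An unadjusted p of limma under 0.05 was seen for 3, against 23.3% of all genes (median difference over the list -0.64). Adgrl1, which encodes the latrophilin Lphn1, was at 8.51 and 8.15 in OP9M2, against 9.74 and 9.62 in BFC012 (-1.35 ± 0.18, 2.55-fold, adjusted p = 0.0309). Of its 2 probe sets 1 was called, and the other differed by -0.95. Adgrl2, a second latrophilin, was at 6.62 and 9.02 in OP9M2, against 11.2 and 11.2 in BFC012. The OP9M2 arrays were 2.39 log2 units apart, and its difference of -3.35 ± 0.81 was not called (adjusted p = 0.115). That difference was -2.15 without OP9M2 replicate 1 and -4.55 without OP9M2 replicate 2. Adgrl3 was below background on all arrays. The latrophilin ligands Flrt2 (0.95 ± 0.28, adjusted p = 0.179) and Flrt3 (-0.97 ± 0.63, adjusted p = 0.511) were not called.

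The 11 members at or below background on every array were Epha1, Epha5, Epha6, Epha8, Ephb1, Robo2, Robo4, Ntn3, Unc5d, Tenm1 and Tenm2. Their values lay between 2.90 and 6.07, and their differences between -0.85 and 0.38. Beside the 12 called members, 4 members had an unadjusted p under 0.05, namely Epha3, Unc5c and Ntn1, with higher means in OP9M2, and Ntn3, with a lower mean.

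The nearest measured protein-coding genes on either side of the 12 called members were examined for differences of their own. Of these 24 neighbours 1 was called, no larger a share than the 5.91% of all genes called in either direction. The called neighbour is named here after its value was seen. It was Pax3, a neural crest and muscle factor next to Epha4 (-1.59, adjusted p = 0.00921). Robo2, next to Robo1, differed by -0.05, and Dctd, next to Tenm3, by -0.997 (adjusted p = 0.0577). On 7 of the 12 called members OP9M2 replicate 2 was nearer to the BFC012 mean than OP9M2 replicate 1, as it was for 638 of the 1076 called genes (59.3%).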

How the data were processed

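RNA of 2 OP9M2 and 2 BFC012 cultures was amplified and measured on Affymetrix mouse expression arrays. The authors deposited 1 intensity for each probe set on each array, made with RMA and the affy package, whose settings the sources do not state. Up to 6.57% of the values exceeded 65535, the scanner maximum, while the natural logarithm of the values ran between 2.06 and 14.9, as RMA values on the log2 scale do. That logarithm was read as the log2 value. The base was not stated, log2 of linear values had been planned, and under that reading all differences grow by 1 constant factor at the same p.

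Of 45101 probe sets 64 controls were left out. Lines were compared with limma 3.58.1 in R 4.3.3 (2 against 2, two-sided, no covariate), with Benjamini-Hochberg adjustment over 45037 probe sets and a minimum of 1 log2 unit. The code was tested on simulated data. Of the probe sets 34945 named 1 gene, 932 several and 9160 none, and 34741 were matched to the mouse gene table, which gave current symbols and gene order. As background level, 6.09, served the 95th percentile over 81 probe sets for olfactory, vomeronasal or trace amine receptor genes. For a line with neither array above it, a fold is the brighter mean over the background level, written "at least"; for a line with 1 array above it, no fold is given. Members, lists and the rule for named genes (all members, called list genes and at most 4 uncalled partners per list) were chosen with earlier results of these data known. Anks1b was named beyond that rule, because another of its probe sets was called. Replicates were not paired by the labels. P-values measure the spread between 2 cultures per line, and the number of arrays limits the precision. The alternatives are given with the closing section.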

Additional observations from a re-analysis of the deposited data

How the results depend on the processing

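The alternatives were log2 of the deposited values, quantile normalization again, median centring, only probe sets above background on 1 array or more, an intensity trend in the variance prior, the mean of all probe sets of a gene, no minimum fold, leaving out each array, and a replicate block. The 12 called members kept their direction under all of them. All 12 calls were kept with log2 of the deposited values, quantile normalization again, probe sets above background, the intensity trend and no minimum fold. Epha7 was not called after median centring (adjusted p = 0.0533), nor Efna2 with the mean of its probe sets (-0.95, under the minimum of 1). That mean also changed the size of called differences, to -2.67 for Slit2, 2.39 for Robo1, -3.30 for Efnb2, -1.81 for Ntn4, -7.51 for Tenm3 and -2.32 for Epha7, and among the list genes to -1.53 for Tiam1 and -2.81 for Grb10. The list genes called higher numbered 0 in the chosen fit and 1 (Gpc1) with probe sets above background, with the intensity trend and with the mean of all probe sets. Vav3 was also called lower with quantile normalization again (adjusted p = 0.0456), median centring (0.0494), probe sets above background (0.0355) and the intensity trend (0.0359), and Ablim1 with probe sets above background (0.0367) and the intensity trend (0.0419).

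The labels number the replicates without saying that a number marks anything shared, and the deviations of equal numbers had r = -0.103 over probe sets, so they were not treated as pairs. With the replicate number as a replicate block, 1 member was called higher and 6 were called lower, and Epha4, Epha7, Efna2, Efnb2 and Unc5b were not called; of the list genes 2 were called lower and 0 higher, and of all probe sets 245 were called higher and 462 lower. With the numbers crossed, 1 member was called higher and 7 lower, against 585 and 792 of all probe sets.

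Leaving out each array in turn, the members called higher ranged from 0 to 3 and those called lower from 0 to 11. The list genes called higher ranged from 0 to 4 and those called lower from 0 to 9, and all probe sets from 0 to 2181 higher and 0 to 2256 lower. The 0 came without either BFC012 replicate, where 1 array stood for BFC012 and was assumed to vary like the OP9M2 pair, with 1 residual degree of freedom. The lowest adjusted p was then 0.0826 without BFC012 replicate 1 and 0.0903 without BFC012 replicate 2.

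None of the genes whose difference changed sign was called. With quantile normalization again the difference was 0.054 for Efnb1, 0.0050 for Slit1 and -0.0024 for Robo3. It was -0.93 for Robo3 with the mean of its probe sets and -0.0033 for Ntn5 after median centring. Leaving out 1 array gave -1.11 to 0.015 for Epha2, -0.26 to 0.013 for Efna3, -0.46 to 0.30 for Efna4, -0.25 to 0.23 for Efnb1, -0.13 to 0.10 for Slit1, -0.32 to 0.37 for Robo3 and -0.079 to 0.10 for Ntn5. With 2 arrays per line, the number of arrays and the distance to background limit what can be called.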
